A study of Mus musculus with 6 samples.

Results

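The globins, the red cell genes Alas2 and Slc4a1, and myoglobin (Mb) were followed in the hearts of 3 hSRY-ON and 3 hSRY-OFF mice. The members were all probes whose symbol was Hba-a1, Hba-x, Hbb-b1, Hbb-b2, Hbb-bh1, Hbb-y, Alas2, Slc4a1 or Mb, whatever their values. These were 11 probes of 9 genes, of 25697 probes with 18138 symbols on the array. All 6 hearts came from male pups at postnatal day 6 of the strain labelled FVB, given as FVB/N in the study's methods. The RNA of each heart was hybridized to its own array, on which the brightness of a probe's beads reports its transcript in a single colour. The labels used here did not say which arrays shared a BeadChip.

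The hSRY-ON pups carried Signalox-hSRY, a single-copy transgene at the H11 locus of chromosome 11. In these pups, Cre recombinase carried over in the oocyte of a Ddx4-Cre mother had removed a loxP-flanked DsRed2 cassette, which placed the FLAG-tagged human SRY and EGFP under the ubiquitously active CAG promoter from the fertilized egg onward. Every tissue, blood included, could therefore have carried the active transgene. The hSRY-ON pups taken for RNA did not themselves inherit Ddx4-Cre. The genotype of the hSRY-OFF pups was not certain, because the name is defined as the unrecombined transgene, whereas the controls are elsewhere described as littermates with Ddx4-Cre alone or with neither transgene. The labels did not tie the hearts to litters, so p-values measure the spread between these hearts only. No pair of arrays held identical values.

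Haemoglobin is built from alpha-like and beta-like globin chains, each of which holds a haem group. In the mouse, Hba-x (zeta), Hbb-bh1 and Hbb-y (epsilon) are made in the primitive red cells of the embryo, and they give way to the adult alpha gene Hba-a1 and the adult beta genes Hbb-b1 and Hbb-b2. Alas2 is the red cell form of the enzyme that starts haem synthesis, and Slc4a1 is band 3, the anion exchanger of the red cell membrane. Circulating reticulocytes keep these transcripts after they lose the nucleus, so a heart that holds blood yields them. Mb, the oxygen store of muscle, is made in cardiomyocytes and not in red cells. In RNA from a whole heart, fewer cells of a type and less RNA per cell cannot be told apart.

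By the RefSeq annotation of GRCm38.p6, the alpha cluster on chromosome 11 runs Hba-x, Hba-a1, Hbq1b, Hba-a2, Hbq1a, and the beta cluster on chromosome 7 runs Hbb-bt, Hbb-bs, Hbb-bh2, Hbb-bh1, Hbb-y. The alpha genes Hba-a1 and Hba-a2 are near copies, since their 300-base start windows share a run of 297 bases, and signal of the Hba-a1 probe may come from both. Which of the adult beta genes the probes named Hbb-b1 and Hbb-b2 match was not settled here. Promoter windows were found for 5 of the 9 members, namely Hba-a1, Hba-x, Hbb-y, Alas2 and Mb. The 250 bases before the start of 4 of them are shown, because they set the neighbours Hba-a1 and Hba-x, of which the first was the brightest probe on most arrays and the second was at background, beside an erythroid enzyme gene and the muscle gene Mb. Capitals mark 2 kinds of short word on either strand, the first being those that GATA factors bind. These were AGATAA, its variant with a final G, which is AGATAG, and the same pair with another first base, which are TGATAA in the former case and TGATAG in the latter. The other kind was CACCC, which Klf1 and related factors bind.
Hba-a1, chr11:32283422-32283671, plus strand: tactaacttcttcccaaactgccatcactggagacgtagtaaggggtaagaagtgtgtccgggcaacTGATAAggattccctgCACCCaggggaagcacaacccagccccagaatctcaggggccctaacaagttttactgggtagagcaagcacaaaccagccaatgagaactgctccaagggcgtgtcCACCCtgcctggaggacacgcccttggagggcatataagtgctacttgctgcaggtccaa
Hba-x, chr11:32276350-32276599, plus strand: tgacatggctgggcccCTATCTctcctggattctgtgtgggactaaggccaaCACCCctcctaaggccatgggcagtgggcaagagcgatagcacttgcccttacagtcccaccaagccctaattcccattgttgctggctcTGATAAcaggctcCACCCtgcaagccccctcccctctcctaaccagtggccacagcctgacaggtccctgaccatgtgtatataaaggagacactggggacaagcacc
Alas2, chrX:150547167-150547416, plus strand: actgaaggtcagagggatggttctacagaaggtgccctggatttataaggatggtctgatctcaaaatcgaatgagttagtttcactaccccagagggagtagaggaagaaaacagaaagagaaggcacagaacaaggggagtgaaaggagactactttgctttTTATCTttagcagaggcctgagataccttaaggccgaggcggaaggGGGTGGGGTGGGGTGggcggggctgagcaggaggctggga
Mb, chr15:77022788-77023037, minus strand: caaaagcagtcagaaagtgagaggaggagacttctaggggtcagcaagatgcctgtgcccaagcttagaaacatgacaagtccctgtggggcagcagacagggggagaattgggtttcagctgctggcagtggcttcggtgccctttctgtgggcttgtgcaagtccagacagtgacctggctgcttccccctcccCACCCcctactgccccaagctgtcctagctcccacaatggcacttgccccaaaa
The Hba-a1 window held 1 GATA word and 2 CACCC words, that of Hba-x held 2 and 2, that of Alas2 held 1 and 3, of which the CACCC words lie end to end on the other strand, and the Mb window shown held 0 and 1. Mb had other windows too, of which chr15:77022728-77022977 overlaps the one shown and also held 0 and 1, whereas chr15:77050669-77050918 held 0 of either kind. The window of Hbb-y, chr7:103853208-103853457 on the minus strand, held 1 of each. Among 32817 RefSeq windows of the same length, 26.6% held a GATA word and 52.0% held CACCC, so neither word is particular to these genes, and a match is a description of the sequence only.

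The embryonic globins gave no signal above background in either group. A probe counts as above background where its detection p-value, taken against the negative-control beads of the array, is under 0.05, and it was tested where this held on at least 3 of the 6 arrays. The probe of Hba-x (ILMN_1240267) read 142, 160 and 140 in the hSRY-OFF hearts and 163, 161 and 136 in the hSRY-ON hearts, in units of mean bead intensity. The probe of Hbb-bh1 (ILMN_1225816) read 165, 196 and 143 in hSRY-OFF and 149, 135 and 150 in hSRY-ON hearts. The Hbb-y probes (ILMN_2723322 and ILMN_3141257) stayed between 130 and 162. None of these 4 probes passed on any array, and the lowest detection p-value was 0.066, for Hbb-bh1 in hSRY-OFF replicate 2. They were not tested, and their levels are only known to lie below what the array detects.

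Of the 7 member probes that were tested, 4 were lower in the hSRY-ON hearts, none was higher, and 3 did not pass the test. The 4 were Hbb-b1, Hbb-b2 and both probes of Mb, and in none of them did the groups overlap. At an unadjusted limma p under 0.05 the counts were the same, 4 lower and 0 higher. Among all 12970 tested probes, 27.5% changed between the groups (limma, adjusted p under 0.05), with 13.8% higher and 13.7% lower in hSRY-ON, and the groups did not overlap in 45.2%, with hSRY-ON the lower in 21.6%. The medians of all tested probes were a log2 fold change of -0.0046 and an absolute log2 fold change of 0.30. Each fold change below is the difference of log2 background-corrected and quantile-normalized intensities, hSRY-ON minus hSRY-OFF, with 16 added before the logarithm.

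**Figure D1:**
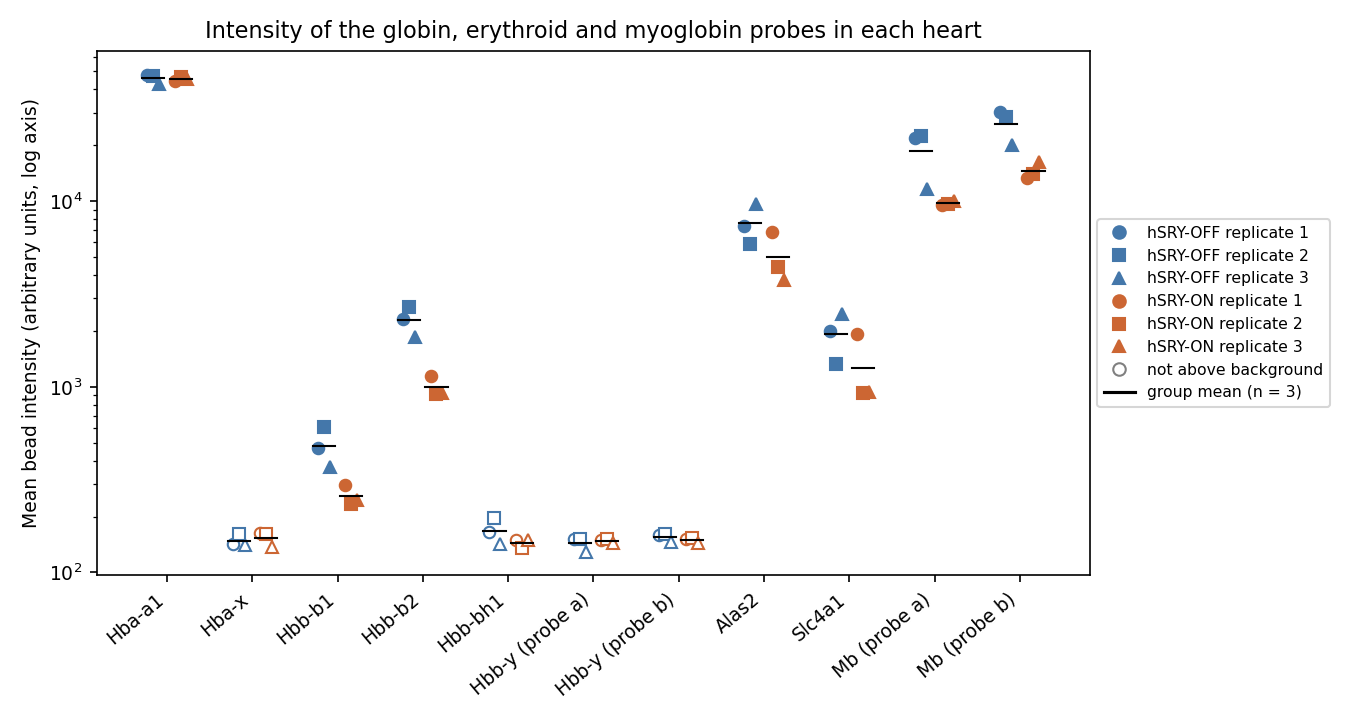
Mean bead intensity (log axis, arbitrary units, not normalized) of each of the 11 member probes in each heart, with hSRY-OFF in blue and hSRY-ON in orange, a symbol for each replicate and a bar at the mean of the 3 hearts. Open symbols are not above background, as in every heart for Hba-x, Hbb-bh1 and Hbb-y, whereas the groups of Hbb-b1, Hbb-b2 and Mb lie apart and those of Hba-a1, Alas2 and Slc4a1 overlap (Mb probe a is ILMN_1234662, probe b ILMN_2954987).

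The probes named for the adult beta-globins Hbb-b1 and Hbb-b2 were lower in the hSRY-ON hearts. After background correction and normalization they were at less than 50% of the control level. Neither read above 2677, whereas Hba-a1 read at least 43036. What part of all adult beta-globin transcripts these probes report is not known. The probe of Hbb-b2 (ILMN_2729513) read 2313, 2677 and 1854 in the hSRY-OFF hearts and 1149, 909 and 926 in the hSRY-ON hearts. Every hSRY-ON heart thus lay below every hSRY-OFF heart. After normalization the level was 11.02 ± 0.13 in hSRY-OFF and 9.81 ± 0.26 in hSRY-ON (mean log2 ± SD, n = 3 each), a log2 fold change of -1.20 (SE 0.16, limma adjusted p = 0.0018), or 43.5% of the hSRY-OFF level. Hbb-b2 was among the stronger decreases of the series, since 374 of the 12970 tested probes, Hbb-b2 included, had a log2 fold change as low or lower.

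Hbb-b1 (ILMN_1235372) changed in the same way from a dimmer signal. Its intensity was 466, 610 and 370 in the hSRY-OFF hearts and 295, 233 and 247 in the hSRY-ON hearts, again without overlap. The normalized level was 8.33 ± 0.21 in hSRY-OFF and 7.04 ± 0.41 in hSRY-ON (mean log2 ± SD, n = 3 each). The log2 fold change was -1.29 (SE 0.22, limma adjusted p = 0.0050), which puts hSRY-ON at 40.9% of hSRY-OFF. With intensities used without background correction, its log2 fold change was -0.77 (limma adjusted p = 0.0014). The lowest intensities of the 6 arrays, which mark the background left in such values, were between 110 and 135. For each beta probe the exact permutation test over the 6 hearts gave p = 0.1, the smallest value that 3 against 3 hearts allow.

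The groups of the alpha-globin probe overlapped, and its change did not pass the test. Hba-a1 (ILMN_1212702) read 48079, 47512 and 43036 in the hSRY-OFF hearts and 44573, 46900 and 45741 in the hSRY-ON hearts. The mean intensity of the hSRY-ON hearts was 0.990 of that of the hSRY-OFF hearts. The log2 fold change was 0.03 (SE 0.11, limma adjusted p = 0.86). Hba-a1 was the brightest probe of the array on 5 of the 6 arrays and ranked 3 in hSRY-OFF replicate 2. Quantile normalization gives the brightest probe of every array the same value, so the normalized level was 15.49 in those 5 hearts by construction. With the globin probes kept out of the quantile step, and under the other processing alternatives, the log2 fold change ranged from -0.01 to 0.20 and passed the test in none. No probe of any array read above 48079. Whether the beads of Hba-a1 were saturated was not tested.

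Alas2 and Slc4a1 had lower means in the hSRY-ON hearts, but their groups overlapped. Alas2 (ILMN_2675874) read 7361, 5858 and 9698 in the hSRY-OFF hearts and 6821, 4441 and 3771 in the hSRY-ON hearts. Its log2 fold change was -0.50 (SE 0.37, limma adjusted p = 0.35). Slc4a1 (ILMN_1227675) read 1986, 1329 and 2462 in the hSRY-OFF hearts and 1918, 923 and 932 in the hSRY-ON hearts. Its log2 fold change was -0.61 (SE 0.47, limma adjusted p = 0.37). In both genes, hSRY-ON replicate 1 read higher than hSRY-OFF replicate 2. The SE of both was more than that of the beta-globins, and the median SE over all tested probes was 0.16. The fold changes depended on single hearts, since without hSRY-OFF replicate 3 they were -0.12 for Alas2 and -0.18 for Slc4a1, and without hSRY-ON replicate 1 they were -0.77 and -1.02. None of these values passed the test, which does not show that these transcripts were the same in both groups.

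Myoglobin was lower in the hSRY-ON hearts by both of its probes. The probe ILMN_1234662 read 21764, 22353 and 11682 in the hSRY-OFF hearts and 9514, 9698 and 10014 in the hSRY-ON hearts. Its normalized level was 14.02 ± 0.19 in hSRY-OFF and 13.32 ± 0.05 in hSRY-ON (mean log2 ± SD, n = 3 each), a log2 fold change of -0.70 (SE 0.13, limma adjusted p = 0.0078). For this probe, the ratio of the highest to the lowest intensity was 1.05 in the hSRY-ON hearts and 1.91 in the hSRY-OFF hearts. These ratios are not normalized, and the lowest hSRY-OFF value was that of replicate 3, the dimmest array. The probe ILMN_2954987 read 30116, 28488 and 19983 in the hSRY-OFF hearts and 13339, 13924 and 16351 in the hSRY-ON hearts. Its normalized level was 14.54 ± 0.11 in hSRY-OFF and 13.93 ± 0.15 in hSRY-ON (mean log2 ± SD, n = 3 each). By this probe the normalized spread was thus not smaller in hSRY-ON. Its log2 fold change was -0.61 (SE 0.13, limma adjusted p = 0.012), and the groups of neither probe overlapped. The call of ILMN_2954987 was lost without hSRY-OFF replicate 1 (-0.54, limma adjusted p = 0.057) and without hSRY-ON replicate 1 (-0.56, limma adjusted p = 0.050), whereas that of ILMN_1234662 held with any heart left out.

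Markers of the cells that make myoglobin moved in both directions beside it. Over all 9660 tested genes, 13.9% were lower and 14.9% higher in hSRY-ON. Of 18 cardiomyocyte genes tested of 19 listed, 6 were lower and 2 higher in hSRY-ON, and their median log2 change was -0.26. The strongest fall was in Tcap, which caps titin at the sarcomere border (-3.10, SE 0.32, limma adjusted p = 0.00075), and the strongest rise was in Myh7, the slow myosin heavy chain that predominates in the fetal ventricle (2.94, SE 0.18, limma adjusted p = 8.2e-05). The summed intensity of these genes was between 347104 and 475617 in hSRY-OFF and between 315033 and 352695 in hSRY-ON hearts, and each of the genes on the array was above background on at least 3 arrays. The part of cardiomyocyte content in the change of Mb was not tested.

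Whether the members changed by unequal amounts was tested within each heart, by the difference of normalized log2 values between a gene and Hbb-b1. Because the normalization held Hba-a1 at 1 value in 5 of the 6 hearts, its difference from Hbb-b1, which was larger in hSRY-ON by 1.32 on average, restates the change of Hbb-b1 and does not measure alpha-globin. The mean gap to Hbb-b1 was larger in hSRY-ON by 0.79 for Alas2, by 0.68 for Slc4a1 and by 0.68 for Mb, with overlapping groups. The exact permutation test, two-sided over the 6 hearts, gave p = 0.1 for Hba-a1, 0.2 for Alas2, 0.3 for Slc4a1 and 0.2 for Mb, or 0.27, 0.27, 0.30 and 0.27 when adjusted over the 4 pairs. With 3 against 3 hearts no p under 0.1 can be reached, so unequal change was not shown for any of the 4 pairs. The pair of Hbb-y and Hbb-b1 was not compared because Hbb-y was at background.

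The member genes fell into different patterns across the 6 hearts. Likeness was measured as the root mean square distance between log2 profiles, each centred on its own mean over the 6 hearts, and it includes the difference between the groups. Hbb-b1 and Hbb-b2 were 0.14 apart, Alas2 and Slc4a1 0.19, and the Mb probes 0.14. Between these sets the distances were larger, at 0.60 from Hbb-b1 to Alas2 and 0.47 from Hbb-b1 to the brighter Mb probe. The distances describe 6 hearts and carry no test.

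**Figure D2:**
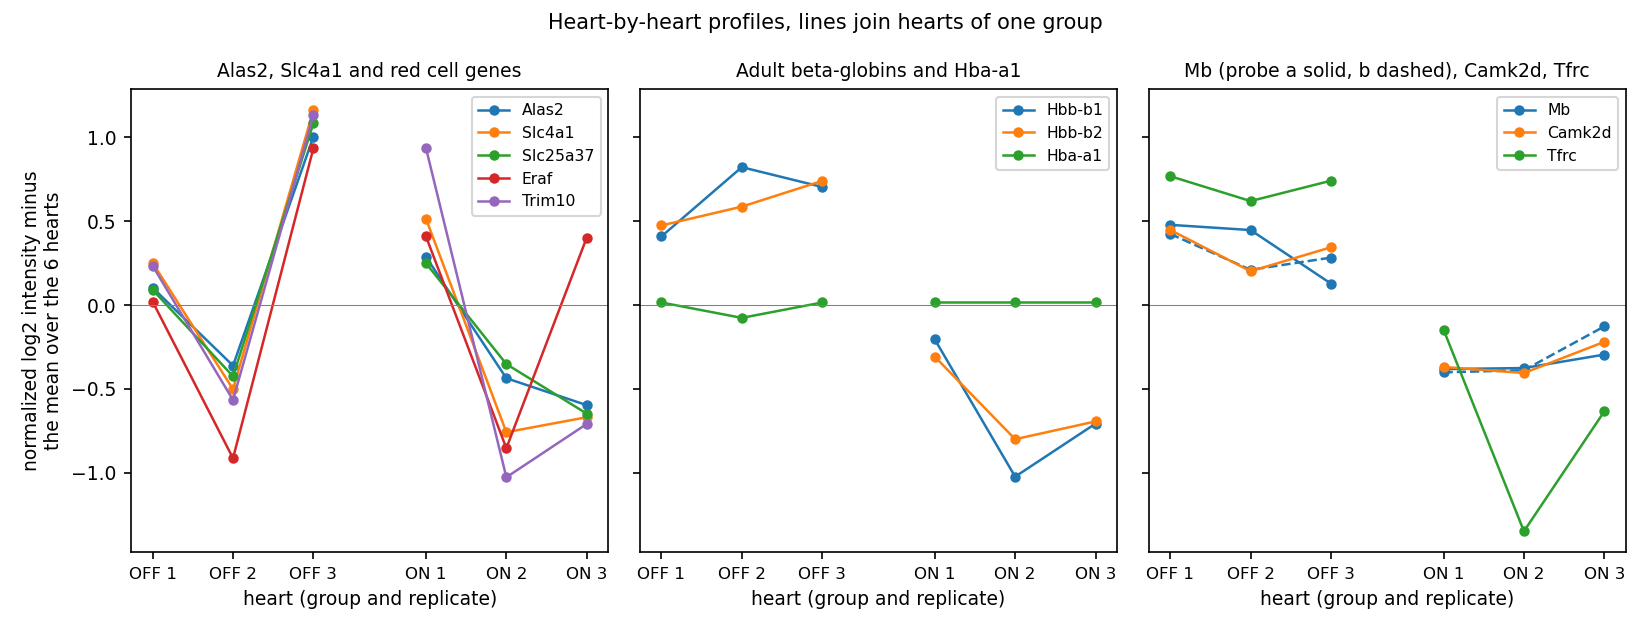
Normalized log2 intensity of each gene minus its mean over the 6 hearts (vertical axis) in each heart (horizontal axis), with lines joining the hearts of a group only to guide the eye, since replicates have no order. Alas2, Slc4a1, Slc25a37, Eraf and Trim10 peak in hSRY-OFF replicate 3 (left), Hbb-b1 and Hbb-b2 separate by group while Hba-a1 is held flat by the normalization (middle), and Mb and Camk2d separate by group with a smaller gap than Tfrc (right).

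Alas2 and Slc4a1 both were highest in hSRY-OFF replicate 3 and, within the hSRY-ON group, in replicate 1, before and after normalization. The 4 genes whose profile lay nearest to Alas2 among the tested probes were Slc25a37 (distance 0.060), Ube2l6 (0.12), Ddx17 (0.15) and Itga2b (0.16). Slc25a37 is mitoferrin, which brings iron into the mitochondria of red cell precursors, and Itga2b is the platelet integrin alpha IIb. Slc25a37 read 1400, 1101 and 1775 in the hSRY-OFF hearts and 1251, 926 and 739 in the hSRY-ON hearts, the same order of hearts as in Alas2. None of the 4 passed the test between the groups.

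The 5 genes nearest to Hbb-b1 were Prrx1 (distance 0.14), Hbb-b2 (0.14), Mfsd7c (0.15), Hfe2 (0.15) and Abcb4 (0.15), all lower in hSRY-ON with log2 fold changes from -1.36 to -1.08. Abcb4 read 168, 157 and 152 in the hSRY-ON hearts, at background. It passed the filter through the hSRY-OFF arrays alone, so its selection favoured a difference. Hfe2 was also at background in hSRY-ON replicates 2 and 3, at 162 and 156. The size of either fall is therefore not known. Mfsd7c is an older name of Flvcr2, a membrane transporter, and Hfe2 is hemojuvelin, a regulator of iron balance made in muscle and liver. The 5 nearest to the brighter Mb probe were Hdhd2 (0.048), Camk2d (0.049), E2f6 (0.051), Syngr2 (0.052) and Qdpr (0.054), with log2 fold changes from -0.66 to -0.60. Camk2d is the main calcium and calmodulin dependent kinase of the heart. Where a gene changed between the groups, likeness of this kind largely repeats that change.

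The hearts in which Alas2 was highest were also counted for the other red cell genes, on the normalized scale. Of the 10 tested genes of the erythroid programme, which is the list of transcription factors, receptors and late red cell proteins, 8 were highest in replicate 3 among the hSRY-OFF hearts and 6 in replicate 1 among the hSRY-ON hearts, and 5 did both. Of the 12 tested red cell membrane genes these counts were 5, 4 and 3, and of the 12 tested haem synthesis genes they were 3, 3 and 2. Over all 9660 tested genes these shares were 43.5%, 30.1% and 13.8%. The counts and shares include genes that were at background in some hearts, where the order is partly one of background values. Eraf, the chaperone of free alpha-globin, read 2207, 1315 and 2712 in the hSRY-OFF hearts and 2343, 1124 and 2351 in the hSRY-ON hearts, of which replicates 1 and 3 were nearly level, with a log2 fold change of -0.03 (SE 0.50, limma adjusted p = 0.97). On the normalized scale, 4 of 5 tested platelet genes were highest in hSRY-OFF replicate 3 and 5 of 5 in hSRY-ON replicate 1. Before normalization all 5 read highest in hSRY-OFF replicate 1 instead of 3, as Ppbp with 391, 222 and 274. Of the tested erythroid programme genes, only Eraf and Trim10 then read highest in hSRY-OFF replicate 3. The summed intensity of the platelet genes was between 1960 and 2506 in hSRY-OFF and between 1744 and 2133 in hSRY-ON hearts, and Gp5 was at background on all arrays. The array of hSRY-OFF replicate 3 was also the dimmest, with a median intensity of 156 against 167 to 201 on the others. The part of blood content in these orders was not tested.

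**Figure D3:**
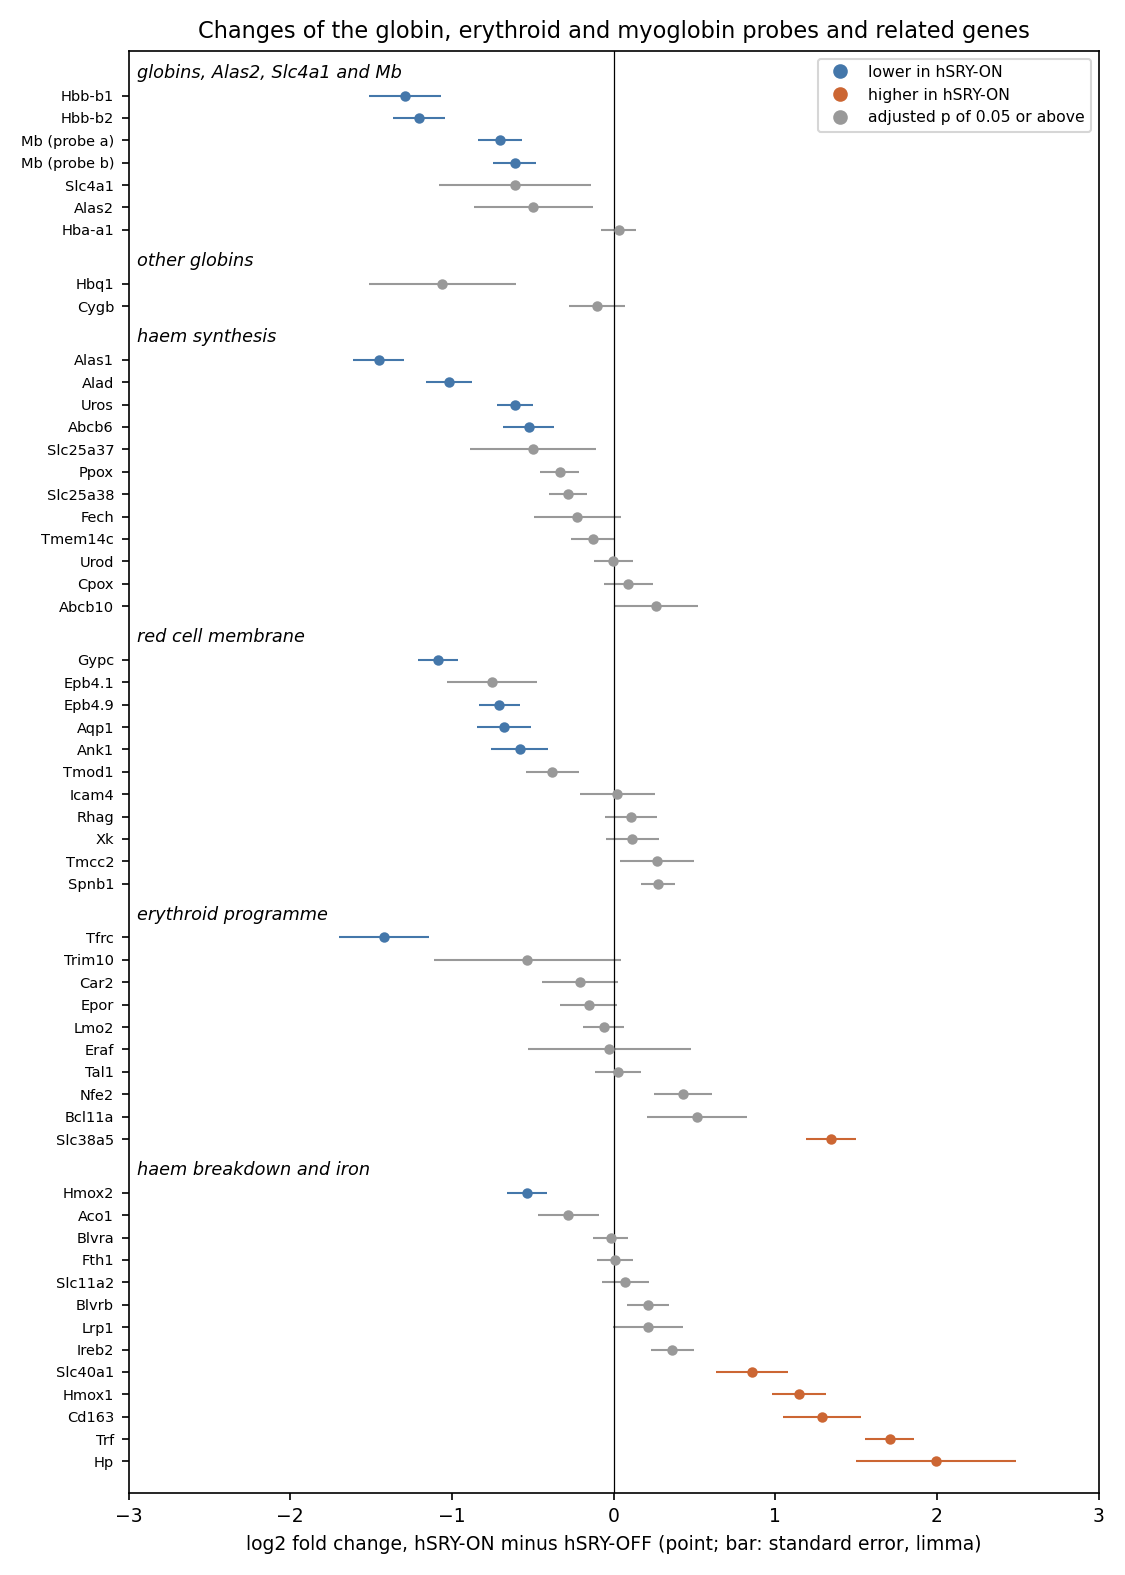
Log2 fold change, hSRY-ON minus hSRY-OFF (point, with the limma standard error as a bar), of the 7 tested member probes and of the brightest tested probe of the genes shown from 5 related lists. Genes lower in hSRY-ON are blue, higher ones orange and those that did not pass the test grey; the haem synthesis and red cell membrane lists hold blue and grey points only, and 5 of the 6 coloured points among the haem breakdown and iron genes are on the right.

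Of the other genes of haem synthesis, several that all cells use were lower in the hSRY-ON hearts. Of 14 listed genes 13 were on the array and 12 were tested, and 4 were lower and none higher (6 and 0 at an unadjusted limma p under 0.05), and the median log2 change of the list was -0.31. Over all 9660 tested genes, 28.8% changed, 13.9% being lower and 14.9% higher, and the median was 0.0026. These shares also stand beside the counts of the lists below. Alas1, the form of the first enzyme that most tissues use, read 11715, 12587 and 6269 in the hSRY-OFF hearts and 3210, 3138 and 3661 in the hSRY-ON hearts, without overlap, with a log2 fold change of -1.45 (SE 0.16, limma adjusted p = 0.00086). Alad, the second enzyme, fell by 1.02 on the log2 scale (limma adjusted p = 0.0022), the fourth enzyme Uros by 0.61 (0.0063) and the porphyrin transporter Abcb6 by 0.53 (0.044). The remaining enzymes Urod, Cpox, Ppox and Fech did not pass the test, with log2 fold changes from -0.33 to 0.09. Of the 14 genes, 13 are also made by heart cells.

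Among red cell membrane genes, all 19 listed were on the array, 12 were tested, and 4 were lower and none higher (5 and 1 at an unadjusted limma p under 0.05), with a median of -0.30. The 4 were the glycophorin Gypc (-1.09, SE 0.13, limma adjusted p = 0.0011), the actin-bundling protein dematin, listed as Epb4.9 (-0.71, limma adjusted p = 0.0058), the water channel Aqp1 (-0.68, limma adjusted p = 0.020) and the ankyrin Ank1 (-0.58, limma adjusted p = 0.043). Aqp1 is also made by capillary endothelium, and 12 of the 19 genes are made by heart cells too. Epb4.2, Rhd, Kel, Ermap, Slc14a1 and Add2, which are all components of the red cell surface or skeleton, were at background on all arrays. Without hSRY-ON replicate 1 the count was 2, and it was also 2 when arrays were scaled by their medians.

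Of the erythroid programme, 18 of 22 listed genes were on the array and 10 were tested, of which 1 was lower and 1 higher, with a median of -0.05. Tfrc, the transferrin receptor that takes up iron in red cell precursors and other growing cells, read 6860, 6674 and 4699 in the hSRY-OFF hearts and 3025, 1483 and 2191 in the hSRY-ON hearts, a log2 fold change of -1.42 (SE 0.28, limma adjusted p = 0.0083), and its other tested probe gave -1.51. Slc38a5, an amino acid transporter, was higher by 1.34 (SE 0.15, limma adjusted p = 0.0010), and without hSRY-OFF replicate 3 there were 2 higher genes. Gata1 and Klf1, the transcription factors that drive the globin genes, were at background on all arrays, as were Gfi1b, Hemgn, Trim58, Bpgm and Cldn13. Of the other globins, Cygb (-0.10, limma adjusted p = 0.70) and the theta globin Hbq1 (-1.06, limma adjusted p = 0.12) did not pass the test, and Ngb, the globin of neurons, was not tested.

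Of the genes that clear haemoglobin and carry iron, more were higher than lower in the hSRY-ON hearts. Of 17 listed genes 16 were on the array and 13 were tested, and 5 were higher and 1 lower, with a median of 0.21. Trf, the transferrin of plasma, read 735, 913 and 548 in the hSRY-OFF hearts and 1976, 2188 and 1586 in the hSRY-ON hearts, without overlap, a log2 fold change of 1.71 (SE 0.15, limma adjusted p = 0.00043). Hmox1, the inducible haem oxygenase that opens the haem ring, read 275, 344 and 246 in hSRY-OFF and 442, 422 and 425 in hSRY-ON hearts, a log2 fold change of 1.15 (SE 0.17, limma adjusted p = 0.0026). Hp, the haptoglobin that binds free haemoglobin, read 209, 217 and 179 in hSRY-OFF and 683, 281 and 278 in hSRY-ON hearts. It was higher by 1.99 (SE 0.50, limma adjusted p = 0.022), although 1 of its 3 tested probes did not pass (1.45, limma adjusted p = 0.082). In all 3 probes, hSRY-ON replicate 1 read far above the other hSRY-ON hearts, so the size of the rise leans on that heart. Slc40a1, the iron exporter ferroportin, was higher by 0.86 (SE 0.22, limma adjusted p = 0.026). Cd163, the macrophage receptor for haptoglobin and haemoglobin, was above background in no hSRY-OFF heart and in all hSRY-ON hearts, so it was at least 1.36-fold higher (limma adjusted p = 0.0072). Such a bound sets the mean of the brighter group against the lowest level that the arrays of the other group detected. This probe of Cd163 (ILMN_2964560) passed the filter through the hSRY-ON arrays alone, so its selection favoured a difference, and with detection required on all 6 arrays 4 genes were higher. The other Cd163 probe (ILMN_2627340) was at background on all arrays, with a normalized level of 4.79 in hSRY-OFF and 4.71 in hSRY-ON. Hmox2, the constitutive haem oxygenase, was the gene that fell (-0.54, SE 0.13, limma adjusted p = 0.018). The count of higher genes was 3 without hSRY-OFF replicate 1 and also without hSRY-OFF replicate 2, whereas that of lower genes was 0 without hSRY-OFF replicate 1, hSRY-OFF replicate 2 or hSRY-ON replicate 1, and 2 without hSRY-OFF replicate 3.

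Some markers of other cells also differed between the groups, where 14.9% of all tested genes were higher and 13.9% lower in hSRY-ON. Of 9 tested macrophage genes, 6 were higher in hSRY-ON and none lower (also 6 and 0 at an unadjusted limma p under 0.05), and the median log2 change was 0.93. The largest rise was in Cd14, a lipopolysaccharide co-receptor (1.30, SE 0.37, limma adjusted p = 0.034). The summed intensity of the macrophage genes was between 4392 and 6468 in hSRY-OFF and between 8108 and 8729 in hSRY-ON hearts, and Itgam was at background on all arrays. Both tested hepatocyte genes of 9 listed were higher, namely the plasma protein Ahsg (3.07, SE 0.35, limma adjusted p = 0.0011) and the transthyretin Ttr, above background in no hSRY-OFF heart and at least 3.87-fold higher (limma adjusted p = 0.00038). Ttr too passed the filter through the hSRY-ON arrays alone, and with detection required on all 6 arrays Ahsg was the 1 hepatocyte gene left to test. The summed intensity of that list was between 1692 and 2210 in hSRY-OFF and between 2915 and 4963 in hSRY-ON hearts, while Alb, Afp, Cps1, Fgb and Serpina1a were at background on all arrays. The part of macrophages or of liver transcripts in the changes of Trf, Hp, Hmox1, Slc40a1 and Cd163 was not tested.

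Few genes of the neutrophil, lymphocyte and platelet lists were called, too few to give these cells a direction. Over all 9660 tested genes, 14.9% were higher and 13.9% lower. The single called gene of the neutrophil list, and that of the fibroblast list, is near what these shares give. Of 5 tested neutrophil genes 1 was higher, Lcn2, an iron-binding lipocalin that was above background in no hSRY-OFF heart and was at least 3.77-fold higher (limma adjusted p = 0.00049) but passed the filter through the hSRY-ON arrays alone, and Ela2 and Il8rb were at background on all arrays. Of 4 tested lymphocyte genes, 2 were lower, and Cd3g changed the most (-0.78, SE 0.22, limma adjusted p = 0.032), but the count was 0 without hSRY-OFF replicate 1, without hSRY-OFF replicate 2 and without either of hSRY-ON replicates 1 and 2, and 1 without hSRY-OFF replicate 3. Cd3g was above background on 3 hSRY-OFF arrays but on only 1 hSRY-ON array. The hSRY-OFF arrays were enough for it to pass the filter, so its selection favoured a difference, and the size of its fall is not known. Cd3e, Cd8a and Ms4a1 were at background on all arrays. None of the 5 tested platelet genes passed (limma, with 1 lower at an unadjusted p under 0.05), with a median of -0.53. The summed intensity of the neutrophil genes lay between 2174 and 3116 in hSRY-OFF and between 2783 and 5470 in hSRY-ON hearts. Single hearts raised it, with Ltf at 2731 in hSRY-ON replicate 1 against 170 and 273 in replicates 2 and 3. S100a8 read 2490 in hSRY-ON replicate 3 against 849 and 778 in replicates 1 and 2. The sum of the lymphocyte genes lay between 1549 and 1962 in hSRY-OFF and between 1569 and 1604 in hSRY-ON hearts. Of 11 tested endothelial genes 5 were lower and 2 higher, from Cldn5, a junction protein (-1.48, SE 0.21, limma adjusted p = 0.0021), to Eng, the TGF-beta co-receptor endoglin (0.75, SE 0.15, limma adjusted p = 0.0088), and of 7 tested fibroblast genes 1, Tcf21, was higher (0.76, SE 0.17, limma adjusted p = 0.014). Leaving out hSRY-OFF replicate 1 reduced the fibroblast count to 0, and leaving out that heart, hSRY-OFF replicate 2 or hSRY-ON replicate 1 reduced the lower endothelial genes to 3, while leaving out replicate 1 or 3 of hSRY-OFF, or replicate 1 or 2 of hSRY-ON, left 1 higher endothelial gene. The part of these cells in the change of the globins was not tested.

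**Figure D4:**
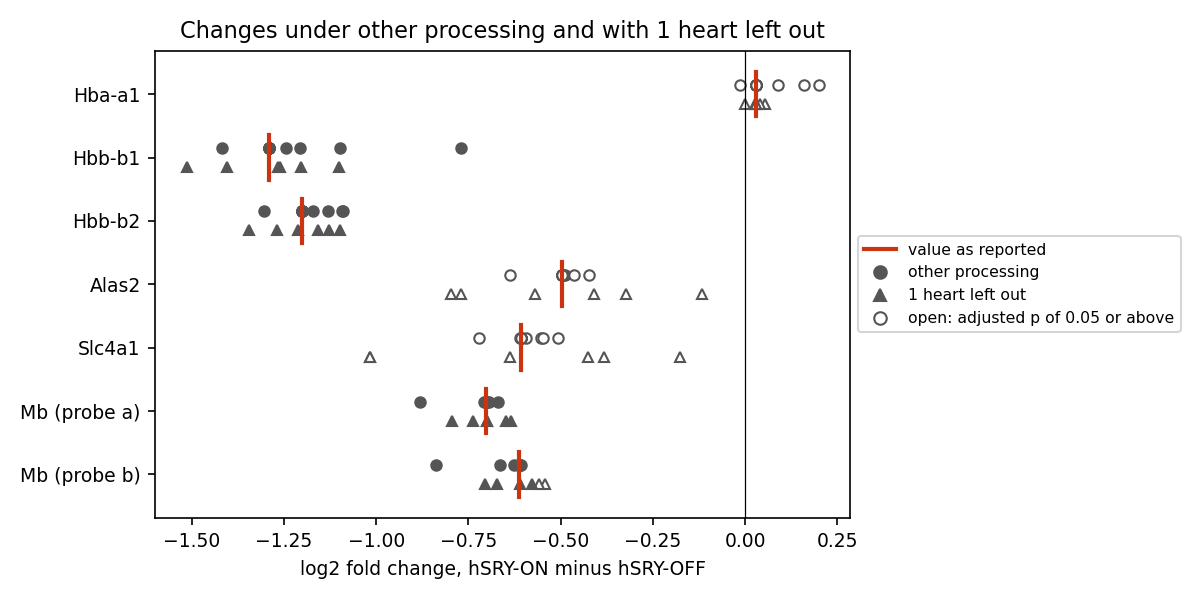
Log2 fold change, hSRY-ON minus hSRY-OFF (horizontal axis), of the 7 tested member probes as reported (red line), under 11 other ways of processing (circles) and with 1 heart left out (triangles), open where the limma adjusted p was 0.05 or above. Hbb-b1 and Hbb-b2 stay filled throughout, Mb probe b (ILMN_2954987) has 2 open triangles, and all points of Hba-a1, Alas2 and Slc4a1 are open.

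The changes of the beta-globin probes held under all 17 alternatives. Their log2 fold changes ran from -1.51 to -0.77 for Hbb-b1 and from -1.34 to -1.09 for Hbb-b2. The highest limma adjusted p was 0.024 for Hbb-b1 and 0.011 for Hbb-b2. Alas2 and Slc4a1 kept a negative log2 fold change in all 17, from -0.80 to -0.12 and from -1.02 to -0.18, and passed the test in none of them. The measurement of Hba-a1 was limited by its place at the top of the array, and those of Hba-x, Hbb-bh1 and Hbb-y by the background.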

How the data were processed

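Total RNA of 6 hearts, 3 hSRY-ON and 3 hSRY-OFF, was hybridized to MouseRef-8 BeadChips. The authors deposited linear, non-normalized mean bead intensities and, per probe and array, a detection p-value, which the authors took against the negative-control beads of the array. The paper's methods name the R package TCC and the submitters' processing notes name limma, but no values that the authors calculated with either were used here. The software that summarised the beads was not given in the sources used here. Groups and replicate numbers came from the sample labels.

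The intensities were processed with R 4.3.3 and limma 3.58.1. Background was corrected as in neqc, by the normal-exponential model with negative controls inferred from the detection p-values and an offset of 16, followed by quantile normalization and log2. Probes with a detection p-value under 0.05 on at least 3 of the 6 arrays were fitted with lmFit and eBayes (two-sided, group only), with Benjamini-Hochberg adjustment across the 12970 probes fitted and a threshold of 0.05. Genes with several probes are given by the brightest tested probe unless stated. Differences between genes were tested within hearts by exact permutation. Python 3.11.15 with matplotlib 3.10.9 drew the figures, and the fit was tested on simulated data. With 200 changed probes among 19759 tested, 198 were recovered and 13 unchanged probes were called. A far smaller share of probes changed there than in these hearts, so the simulation does not show how the fit performs here.

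Quantile normalization fixes the value of the brightest probe, and a log2 fold change with an offset understates the change of a dim probe. Between 47.2% and 51.3% of the probes were above background on each array, and the number of arrays limits the precision. Intensities of different probes are not on 1 scale, so differences between probes were taken within a heart and only compared between the groups. A summed intensity adds the uncorrected intensities of every probe of a list, those at background included. It is therefore led by the brightest probes and, in dim lists, by the background of the array.

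The members and gene lists were chosen with earlier results of these data known. Named genes were all member probes, up to 5 changed genes in each direction of each haem, iron, red cell or globin list, the strongest changed marker of each cell type in each direction, and the 5 genes nearest in profile to Hbb-b1, Alas2 and Mb. Slc25a37, Eraf, Trim10, Urod, Cpox, Ppox, Fech, Cygb, Hbq1 and the genes at background were named after their values were seen. So were Ngb, Ppbp, Ltf and S100a8. The lists were other globins, haem synthesis, red cell membrane, erythroid programme, haem breakdown and iron, and markers of platelets, neutrophils, lymphocytes, macrophages, cardiomyocytes, endothelium, fibroblasts and hepatocytes. The alternatives were no background correction, an offset of 50, no normalization, median scaling, scaling in the manner of TCC, globin probes left out of the quantile step, no filter, a detection p-value under 0.01, detection required on all 6 arrays, a robust eBayes fit with an intensity trend, the replicate number as a block, and each heart left out in turn. The other organs of the study were not analysed here, and results of some listed genes and of 1 gene near Alas2 are not reported here. Promoter sequences came from RefSeq windows of GRCm38.p6.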

Additional observations from a re-analysis of the deposited data

How the results depend on the processing

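Of 12970 tested probes, 3567 changed, and the count was 1897 without normalization between arrays. With 1 heart left out it ranged from 2239 to 3714, and the lowest value was that without hSRY-OFF replicate 1. The 4 member calls became 3 with some hearts left out and stayed 4 under all other alternatives. The log2 fold change of Hba-a1, 0.03 as reported, was -0.013 without normalization. The differences between member genes kept their direction under the 12 alternatives tried for them, and none could pass, but that of Hba-a1 minus Hbb-b1 largely repeats the change of Hbb-b1. Of the changed probes 50.1% were higher in hSRY-ON, against 38.5% without normalization, which moved the median log2 fold change of all probes to -0.12, and 65.7% with median scaling (median 0.09). Same-numbered hearts showed no sign of deviating together (correlations of -0.025, 0.038 and -0.066). Such values from 3 hearts per group cannot exclude a pairing, so whether the replicate numbers pair the hearts is not known. With the replicate number as a block 2842 probes changed, and 4 member probes were called. Among the gene lists, leaving out hSRY-OFF replicate 2 or using no normalization gave 1 lower gene each among the other globins and the platelets, where there was none, and the block did so for platelets. Without normalization 2 haem synthesis genes, 2 endothelial genes, 1 lymphocyte gene and 0 haem breakdown and iron genes were lower, and 3 neutrophil, 1 cardiomyocyte, 0 endothelial and 0 fibroblast genes were higher. With median scaling 3 endothelial and 0 haem breakdown and iron genes were lower. The count of lower lymphocyte genes, 2 as reported, was 0 or 1 under all other processing but the scaling in the manner of TCC and the quantile step without globin probes. With detection required on all 6 arrays 0 neutrophil, 0 lymphocyte and 1 hepatocyte genes were called. The causes of these shifts were not tested.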
